A study of Mus musculus with 25 samples.

Results

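The matrix metalloproteinases (Mmp), the ADAMTS proteases (Adamts) and their tissue inhibitors (Timp) were followed in mouse lumbar dorsal root ganglia after surgical destabilization of the medial meniscus (DMM), which leads to osteoarthritis of the knee. Members were chosen by gene symbol alone, as Mmp, Adamts or Timp followed by a number, and each gene was represented by the single-symbol probe set with the highest mean over the 25 arrays. This gave 44 members of 30142 genes on the array, of which 22 were Mmp, 18 Adamts and 4 Timp genes. Of these, 28 passed the filter on dim probe sets and were tested among 20260 genes.

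Matrix metalloproteinases are zinc-dependent enzymes that cut collagens, laminins, proteoglycans and many cell surface and signalling proteins. Most are secreted as inactive proenzymes, and a membrane-anchored subset, which includes Mmp14, works at the cell surface. The ADAMTS proteases are secreted relatives that include the aggrecan-cutting enzymes of cartilage and the processing enzymes of procollagens, and the 4 Timp proteins bind and block the active sites of these enzymes. In peripheral nerve and ganglia the family is known for remodelling of basement membranes, for cutting myelin and cytokine precursors after nerve injury, and for shaping the response of pain-sensing neurons.

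All mice were male C57BL/6, with no other allele named. One arm stayed untreated (naive), and the others had sham surgery or DMM in the right knee when 10 weeks old. Ganglia of levels L3 to L5 were collected 4, 8 or 16 weeks later, when the mice were 14, 18 or 26 weeks old. Naive mice were taken at those same ages. Each group had 3 arrays, except sham at 8 weeks, which had 1 array because the others failed the submitters' quality control. The labels do not say how many mice an array holds or on which side the ganglia were taken, so the p-values measure the spread between these samples. All values are log2 intensities, on which a difference of 1 is a 2-fold change in signal, and precision is limited by how many arrays each group has. In a whole ganglion, fewer cells of a type and less RNA per cell cannot be told apart.

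The tissue label was checked against its markers. All 11 measured sensory neuron markers lay above the median of the negative controls, and their mean per group ran from 15.84 to 15.95. Of the 7 measured cartilage and bone markers, Col2a1, Acan, Matn1, Bglap and Sp7 lay at or below that median, and Sox9 and Ibsp lay above it. Of the 6 measured T and B cell markers, Cd3e, Cd3d, Cd8a, Cd4 and Ms4a1 lay at or below it, and Cd79a lay above it. Of 8 neutrophil markers, S100a8, S100a9, Ngp and Camp lay above it and Mpo, Ltf, Retnlg and Elane at or below it. Sheath fibroblast and macrophage markers were measured, and their levels varied between arrays of 1 group. DMM replicate 3 at 16 weeks had the second lowest level of the 14 fibroblast and meningeal sheath markers of all 25 arrays, 8.56, and replicates 1 and 2 of that group had 9.93 and 10.44. Results that rest on that array are given with and without it.

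The first question was which members were measured above the array's negative control probe sets. The array carries 5222 negative control probe sets, with medians of 5.06 to 5.35 and 95th percentiles of 8.21 to 8.77 on the single arrays. These medians lay above those of all transcript probe sets, 4.88 to 4.97. The array's 23 background probe sets had lower medians, 3.31 to 3.58, and the lowest member mean, 3.75 for Mmp7, lay above them. Control level here thus means the level of the negative controls. By their mean over all arrays, 22 of the 44 members (50%) lay at or below the median of these controls, 16 lay between the median and the 95th percentile, and 6 lay above the 95th percentile. Among all 30142 genes, 44.7% lay at or below the median and 24.2% above the 95th percentile, against 13.6% of the members. On the single arrays, 18 members were above the control median on all 25 arrays, 18 were below it on all 25, and the other 8 crossed it. Each level is read here against the negative controls only, since the intensities of different probe sets are not comparable with each other.

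The 6 members above the 95th percentile were Timp2, Mmp25, Adamts5, Mmp14, Mmp2 and Timp3. Timp2, an inhibitor that also helps Mmp14 to activate pro-Mmp2, had a lowest value of 14.44, a median of 14.63 and a highest value of 14.79. Mmp25, a membrane-anchored metalloproteinase, ran from 10.72 to 11.62 with a median of 11.12. Adamts5, the main aggrecan-cutting enzyme of mouse cartilage, ran from 9.96 to 10.80 with a median of 10.31. Mmp14 was at 9.06 to 10.37 (median 9.35), and Mmp2, a gelatin- and type IV collagen-cutting enzyme, was at 8.25 to 10.05 (median 9.09). Mmp2 was above the 95th percentile on 23 of 25 arrays, and Timp3, an inhibitor of both metalloproteinases and ADAMTS proteases, exceeded it on all 25 with 8.78 to 9.55 (median 9.12).

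Of the members known from cartilage destruction and from nerve injury, several were at control level. Mmp13, the main type II collagenase of osteoarthritic cartilage, had a lowest value of 3.69, a median of 3.97 and a highest value of 4.18. Mmp3 (stromelysin) was at 3.80 to 4.39 with a median of 3.98. Mmp9, the gelatinase that leukocytes and injured nerve release, was at 4.09 to 4.58 with a median of 4.27. Adamts4, the other aggrecanase, was at 3.92 to 4.29 with a median of 4.10. These 4 members were below the control median on all 25 arrays, in all 9 groups, and did not pass the filter, so no difference between groups is given for them.

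The members at control level divided by family. They were 14 of 22 Mmp genes, 7 of 18 Adamts genes and 1 of 4 Timp genes. Of these, 16 were not tested: 12 Mmp genes, namely Mmp1a, Mmp1b, Mmp3, Mmp7, Mmp8, Mmp9, Mmp10, Mmp12, Mmp13, Mmp20, Mmp21 and Mmp27, and Adamts4, Adamts13, Adamts16 and Adamts19. The other 6 passed the filter and were tested although they lay at control level: Mmp11, Mmp23, Adamts7, Adamts14, Adamts18 and Timp1. Timp1, the inhibitor that injured neurons and glia are known to induce, averaged 4.81 and exceeded the control median on 5 arrays.

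**Figure D1:**
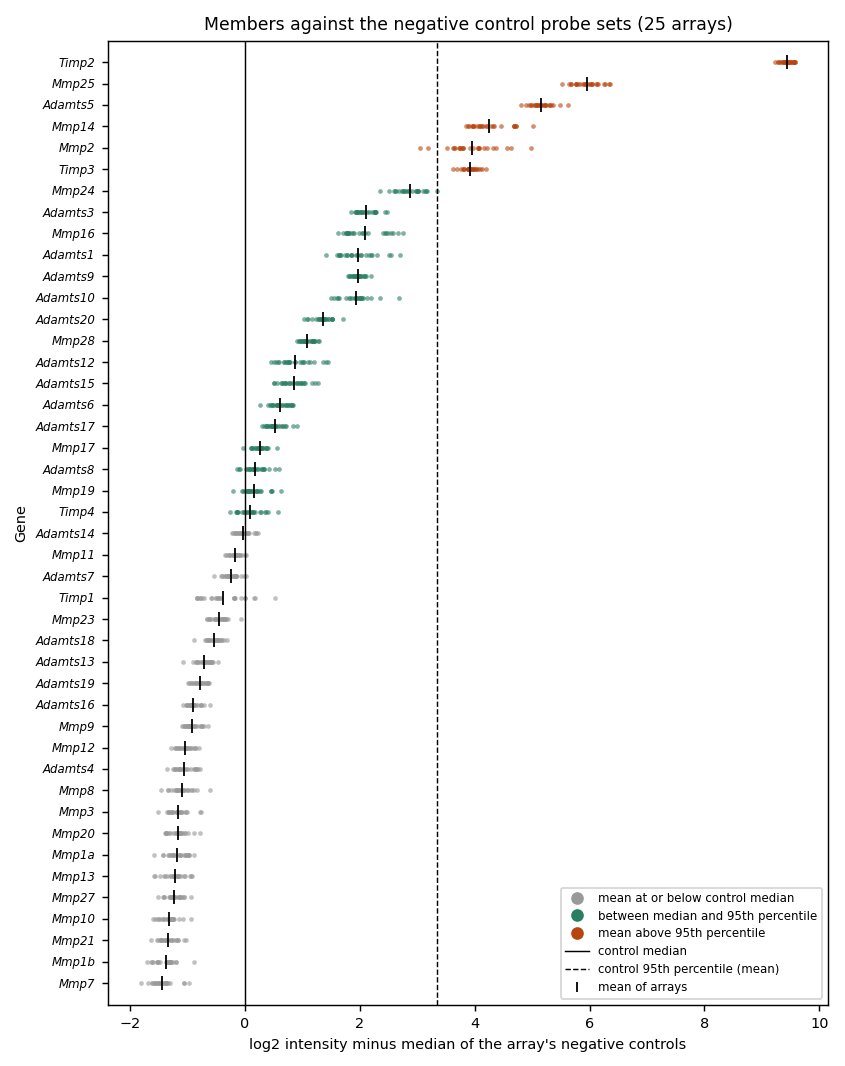
Log2 intensity of each of the 44 members minus the negative control median of the same array (x axis), 1 point per array and a tick at the mean over 25 arrays, ordered by the mean (y axis, gene). The solid line is the control median and the dashed line the mean 95th percentile of the controls; 22 members average at or left of the solid line and 6 average right of the dashed line.

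Of the 22 members at control level, 10 lie side by side in the genome. In the RefSeq order of coding genes on mouse chromosome 9 (build GRCm38.p6), these 10 follow each other without another coding gene between them: Mmp13, Mmp12, Mmp1b, Mmp3, Mmp1a, Mmp10, Mmp8, Mmp27, Mmp20 and Mmp7. All 10 lay below the control median on every array, by 1.04 to 1.43 on average, with single values from 3.54 to 4.61. Among them are the classic secreted collagenases, stromelysins and matrilysin, several of which are induced in many tissues through AP-1, the dimer of Jun and Fos proteins. Adamts1 and Adamts5 are neighbours on chromosome 16 and both were measured above the control median on all 25 arrays. Adamts15 and Adamts8 are neighbours on chromosome 9; Adamts15 was above the median on 25 arrays and Adamts8 on 22.

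The RefSeq promoter table held 33 promoters of 30 members, each of 250 bases before and 50 after the start site. Each was searched on both strands for 3 motifs. The AP-1 motif was TGANTCA, which reads the same on either strand. The core promoter motif known as the TATA box was searched as TATAAA. The Sp1 motif was searched as GGGCGG. The AP-1 motif was present for 8 of the 10 genes of the chromosome 9 run, all but Mmp8 and Mmp27, and for 0 of the 20 other members with a promoter. Of all 32851 promoters in the table, 7.81% held it. TATAAA was present for 9 of the 10 and for 2 of the 20 others, Adamts1 and Mmp21, against 13.6% of all promoters. GGGCGG was present for 0 of the 10 and for 16 of the 20 others, against 35.7% of all promoters. Genes in the run are related in sequence, so their promoters are not independent of each other, and a match of letters is a description and not a bound site.

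The stretches around these motifs are shown for 5 genes of the run, all at control level here, and for Mmp14, Adamts12 and Adamts1, whose values after DMM are described further on. Matches are in capitals. They come from RefSeq, build GRCm38.p6: Mmp13 chr9:7272469-7272513, Mmp12 chr9:7347320-7347373, Mmp3 chr9:7445766-7445821, Mmp10 chr9:7502269-7502330, Mmp7 chr9:7692017-7692078 and Mmp14 chr14:54431528-54431597 on the plus strand, Adamts1 chr16:85803114-85803183 on the minus strand and Adamts12 chr15:11064703-11064772 on the plus strand. Each ends at or before the base next to the start site.
Mmp13: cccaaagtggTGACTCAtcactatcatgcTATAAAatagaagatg
Mmp12: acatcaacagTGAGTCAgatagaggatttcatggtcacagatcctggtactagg
Mmp3: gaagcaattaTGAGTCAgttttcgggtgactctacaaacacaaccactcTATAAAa
Mmp10: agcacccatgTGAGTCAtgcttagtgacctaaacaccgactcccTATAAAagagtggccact
Mmp7: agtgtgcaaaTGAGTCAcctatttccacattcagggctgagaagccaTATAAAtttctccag
Mmp14: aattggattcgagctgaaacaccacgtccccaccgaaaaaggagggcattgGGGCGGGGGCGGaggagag
Adamts1: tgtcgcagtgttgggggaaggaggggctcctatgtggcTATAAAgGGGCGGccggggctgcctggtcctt
Adamts12: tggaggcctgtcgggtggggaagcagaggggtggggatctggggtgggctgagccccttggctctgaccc
In Mmp13, Mmp3, Mmp10 and Mmp7 a TGANTCA match stands upstream of a TATAAA match within this short window. In Mmp12 the TATAAA match lies after the start site, outside the stretch shown. Mmp14 holds a pair of GGGCGG matches, Adamts1 holds TATAAA next to GGGCGG, and Adamts12 holds none of the 3 motifs in these bases.

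The main comparison of the study was DMM against its controls. No member passed an adjusted p of 0.05 (limma, Benjamini-Hochberg over 20260 genes) in any comparison of DMM with naive or sham mice, and few genes of the array did. Against naive mice, 0 of 28 tested members were called at 4, 8 and 16 weeks and over the mean of the 3 times, where 0.00987%, 0.0494%, 0.0148% and 0.0444% of all tested genes were called. Against sham mice, 0 of 28 were called at 4, 8 and 16 weeks and over the mean of 4 and 16 weeks, where 0%, 0%, 0.00494% and 0.00987% of all genes were called. At an unadjusted p below 0.05, the members against naive numbered 4 at 4 weeks (all genes 8.80%), 1 at 8 weeks (8.49%), 2 at 16 weeks (8.81%) and 6 over the mean (7.32%). Of these 6, 4 were higher and 2 lower after DMM, and the smallest p was that of Adamts14, which was lower (-0.11 ± 0.03, adjusted p 0.229). Against sham they numbered 3 at 4 weeks (4.68%), 0 at 8 weeks (8.43%), 3 at 16 weeks (6.45%) and 4 over the mean (4.88%). As shares of the 28 members, counts of 1, 2, 3, 4 and 6 are 3.57%, 7.14%, 10.7%, 14.3% and 21.4%. The members' share lay above that of all genes over both means, at 4 weeks against both controls and at 16 weeks against sham. It lay below that of all genes at 8 weeks against both controls and at 16 weeks against naive. Both means share DMM arrays, so they are not independent of each other.

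Against naive mice the members were centred close to all other genes. Their median difference of DMM from naive was -0.03 at 4 weeks, 0.01 at 8 weeks and 0.01 at 16 weeks, beside -0.03, -0.00 and 0.01 over all tested genes. Against sham the medians were -0.01 at 4 weeks, 0.05 at 8 weeks (1 sham array) and 0.07 at 16 weeks, beside 0.01, 0.00 and -0.01 over all tested genes. At 16 weeks 18 of the 28 members were higher than sham, where 45.0% of all tested genes were. Mmp14, Adamts12 and Adamts1 were the 3 members of smallest p against sham at 4 weeks and over both times, and the comparisons with naive and with sham share the DMM arrays.

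Mmp14 encodes the membrane type 1 metalloproteinase, which cuts fibrillar collagen and activates pro-Mmp2. At 16 weeks its values were 9.29, 9.22 and 9.10 in naive mice, 9.35, 9.43 and 9.13 in sham mice and 9.93, 10.37 and 9.29 in DMM mice. The first 2 DMM arrays were above every control array of that time, and the third was at the same rounded value as the highest naive array and within the sham range. DMM exceeded naive by 0.66 ± 0.18 (SE, 3 against 3 arrays), a 1.58-fold difference with an adjusted p of 0.328, and exceeded sham by 0.56 ± 0.18 (adjusted p 0.668). At 4 weeks the DMM arrays were at 9.80, 9.61 and 9.81 and the sham arrays at 9.35, 9.23 and 9.41. These groups did not overlap (difference 0.41 ± 0.18, adjusted p 0.986), but the naive arrays of that time, at 9.40, 9.79 and 9.77, overlapped with DMM. At 8 weeks DMM was at 9.37, 9.27 and 9.57, above the naive arrays at 9.16, 9.21 and 9.06 and the sham array at 9.07. Over the 3 times DMM exceeded naive by 0.34 ± 0.10 (adjusted p 0.411), and over 4 and 16 weeks it exceeded sham by 0.49 ± 0.13 (adjusted p 0.626).

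Adamts12 encodes a secreted protease that cuts cartilage oligomeric matrix protein. Its values at 16 weeks were 5.90, 5.73 and 5.80 in naive mice, 5.98, 6.10 and 5.94 in sham mice and 6.66, 6.46 and 6.02 in DMM mice. All 3 DMM arrays were above all 3 naive arrays, and the third DMM array fell within the sham range. DMM exceeded naive by 0.56 ± 0.14, a 1.48-fold difference (adjusted p 0.246), and sham by 0.37 ± 0.14 (adjusted p 0.714). At 4 weeks it was at 6.55, 6.11 and 6.32 after DMM and 6.11, 6.19 and 6.41 in naive mice, which overlapped (difference 0.09 ± 0.14, adjusted p 0.906). At 8 weeks DMM arrays were at 6.10, 5.88 and 6.23 and naive arrays at 5.82, 5.90 and 5.62, which overlapped. Over the 3 times the difference from naive was 0.31 ± 0.08 (adjusted p 0.250) and over 4 and 16 weeks that from sham was 0.36 ± 0.10 (adjusted p 0.670).

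Adamts1 encodes a protease that cuts versican and aggrecan and binds vascular growth factor. At 4 weeks its values were 7.61, 7.69 and 7.42 in DMM mice, 7.18, 6.91 and 6.96 in sham mice and 7.11, 7.09 and 7.26 in naive mice. DMM arrays lay above both control groups without overlap, by 0.56 ± 0.22 against sham (adjusted p 0.986) and 0.42 ± 0.22 against naive (adjusted p 0.610). At 16 weeks the DMM arrays were widely spread, at 7.47, 8.05 and 6.67, with the lowest below every naive and sham array of that time. At 8 weeks DMM (7.20, 6.76 and 7.17) and naive (7.12, 7.08 and 6.83) overlapped.

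The call at 16 weeks depended on 1 array. Without DMM replicate 3 of 16 weeks, 3 members exceeded naive at 16 weeks past the threshold: Mmp14 by 0.95 (adjusted p 0.00292), Adamts12 by 0.75 (0.00789) and Adamts1 by 0.75 (0.0307). In that fit 325 genes of the array were called, against 3 with the array included. Mmp14 then also exceeded sham at 16 weeks by 0.85 (adjusted p 0.0256), naive over the 3 times by 0.43 (0.0200) and sham over 4 and 16 weeks by 0.63 (0.00909), and Adamts12 exceeded naive over the 3 times by 0.37 (0.0402). Without DMM replicate 2 of 16 weeks, in contrast, the difference of Mmp14 from naive at 16 weeks was 0.41 (adjusted p 0.926) and that of Adamts12 was 0.53 (adjusted p 0.680). Without DMM replicate 1 of 16 weeks they were 0.63 (adjusted p 0.617) and 0.42 (adjusted p 0.664).

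Markers of sheath fibroblasts, macrophages and neutrophils were set beside the members in the same groups. The 14 fibroblast and meningeal sheath markers averaged 9.93, 10.44 and 8.56 on the DMM arrays of 16 weeks, in the same order as Mmp14 and Adamts1, and 8.72 to 9.23 on the naive arrays. That order was not particular to the sheath list. The lists of mast cell, endothelial, pericyte and smooth muscle, satellite glia, and T and B cell markers had it too. Other lists, among them the macrophage and sensory neuron markers, had other orders. All 14 sheath markers exceeded their naive levels in the DMM group at 16 weeks, with a median difference of 0.42. By limma 0 were called, with 5 at an unadjusted p below 0.05. Of all tested genes, 53.0% were higher than naive at that time and 8.81% had an unadjusted p below 0.05. Against sham at 16 weeks 10 of the 14 sheath markers were higher (median 0.12, all genes 45.0% higher), and at 4 weeks all 14 (median 0.40, all genes 53.8% higher). The 12 macrophage markers averaged 7.30, 7.33 and 7.55 on the DMM arrays of 16 weeks and 6.82 to 7.0 on the naive arrays, and all 12 were higher (median difference 0.52, 0 called and 8 at an unadjusted p below 0.05). Against sham, 11 of the 12 were higher at 16 weeks (median 0.23, 1 at that p). At 4 weeks all 12 exceeded sham (median 0.37, 0 called, 7 at that p, all genes 4.68%). Over both times all 12 did (median 0.27, 8 at that p, all genes 4.88%). Sham mice of 16 weeks also had all 12 macrophage markers above naive (median 0.25) and 13 of the 14 sheath markers (median 0.35). The 8 neutrophil markers averaged 5.77, 5.81 and 5.90 on the DMM arrays of 16 weeks, 5.08 to 5.31 on the naive arrays and 4.93, 6.81 and 6.10 on the sham arrays. Of the 6 tested, all 6 were higher after DMM than in naive mice (median difference 0.72, 0 called and 3 at an unadjusted p below 0.05). Sham mice of 16 weeks also had all 6 above naive (median 0.80, 0 called and 6 at an unadjusted p below 0.05), and against sham the DMM median was -0.14. Of all tested genes, 57.3% were higher in sham than in naive mice of 16 weeks and 10.8% had an unadjusted p below 0.05. None of the 12 macrophage markers lay at control level, and of the 14 fibroblast markers Tbx18 and Dpt did. The part of these marker lists in the differences of the members was not tested.

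**Figure D2:**
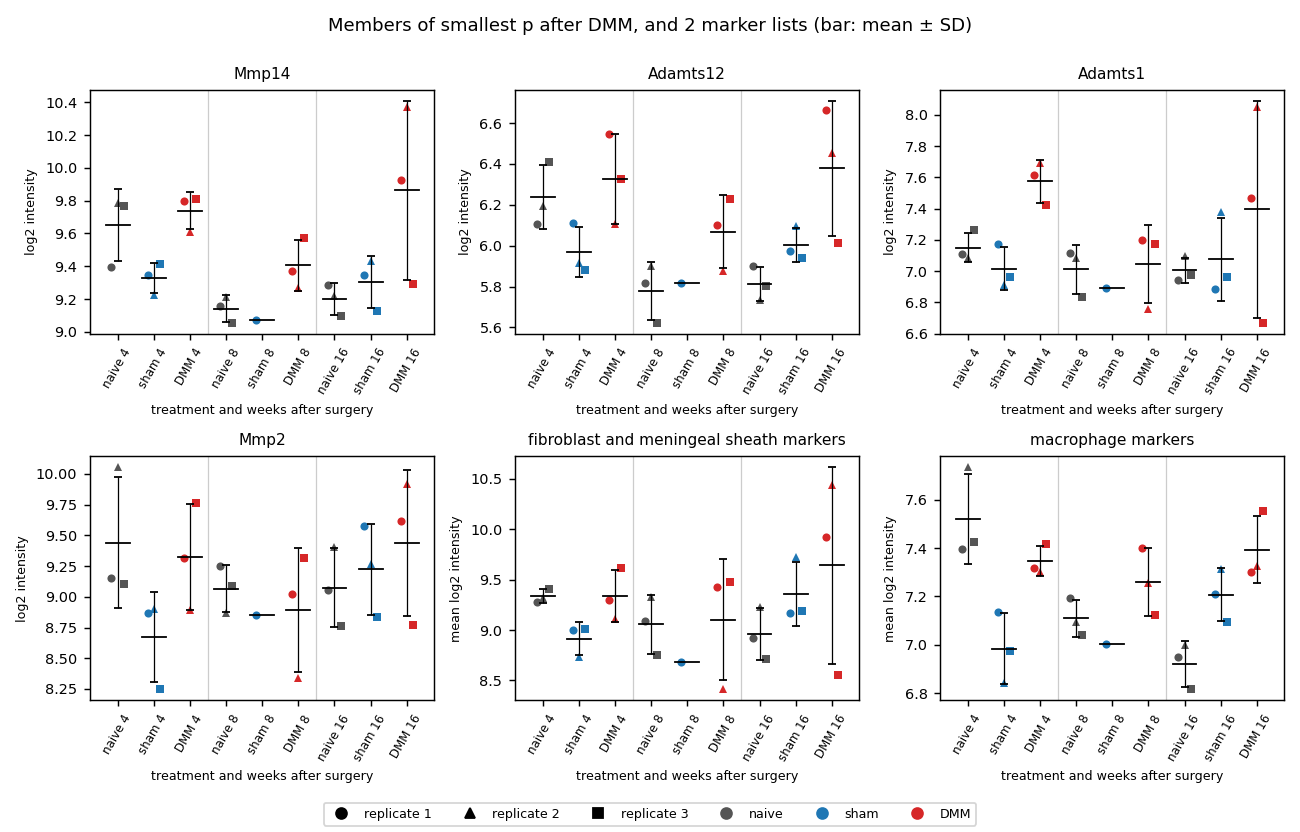
Log2 intensity (y axis) of Mmp14, Adamts12, Adamts1 and Mmp2 and the mean log2 intensity of the fibroblast and meningeal sheath and macrophage markers, by treatment and weeks after surgery (x axis), with 1 point per array, symbols for replicates and bars for mean ± SD. At 16 weeks DMM replicate 3 is the lowest of its group for all 4 genes and for the sheath markers, and the highest for the macrophage markers.

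Mmp2 varied most between arrays, with a range of 1.81, and its groups overlapped in the comparisons of DMM with naive and sham. At 4 weeks it was at 9.32, 8.89 and 9.76 in DMM, 8.87, 8.90 and 8.25 in sham and 9.16, 10.05 and 9.11 in naive mice. The difference of DMM from sham was 0.65 ± 0.32 (adjusted p 0.986) and that of sham from naive -0.77 ± 0.32 (adjusted p 0.247). The sham arrays all lay below the naive arrays, and 1 DMM array lay among them. Over the 3 times the difference of DMM from naive had a 95% interval of -0.37 to 0.41.

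Adamts5 and Mmp24 showed small differences with the following limits. For Adamts5 the difference of DMM from naive over the 3 times was -0.03 ± 0.09, with a 95% interval of -0.22 to 0.16. Its 16-week values were 10.34, 10.49 and 10.37 in DMM and 10.30, 10.46 and 10.45 in naive mice, which overlapped. Mmp24, a membrane-type metalloproteinase of neurons, was above the control median on all 25 arrays, from 7.71 to 8.47. Its difference of DMM from naive over the 3 times was -0.01 ± 0.08, with an interval of -0.17 to 0.15, and that of DMM from sham over 4 and 16 weeks was -0.11 ± 0.09 (-0.30 to 0.09).

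Other members had a small p in single comparisons. At 4 weeks Mmp16 was at 7.19, 7.63 and 7.01 after DMM and 7.84, 7.51 and 7.73 in naive mice, which overlapped (difference -0.42 ± 0.14, adjusted p 0.413), and Adamts9 was at 7.09, 7.23 and 7.20 against 6.97, 6.97 and 6.85, which did not (0.25 ± 0.09, adjusted p 0.466). Adamts15, an aggrecan- and versican-cutting protease, was at 6.34, 6.16 and 6.28 in DMM and 6.06, 6.04 and 6.09 in naive mice at 4 weeks, without overlap (difference 0.20 ± 0.11, adjusted p 0.627), and its difference over the 3 times was 0.16 ± 0.06 (adjusted p 0.577). Against sham at 16 weeks its difference was 0.23 ± 0.11 (adjusted p 0.758). Adamts14, a procollagen-processing enzyme at control level, had 8-week values of 5.11, 5.0 and 5.02 after DMM and 5.18, 5.19 and 5.33 in naive mice, without overlap (difference -0.19 ± 0.05, adjusted p 0.174). Adamts6 was at 6.06, 6.13 and 5.71 in DMM and 5.74, 5.77 and 5.59 in naive mice at 16 weeks, which overlapped (difference 0.27 ± 0.13, adjusted p 0.584). Mmp28 at 8 weeks was 0.10 ± 0.06 above naive (adjusted p 0.717). Against the single sham array of 8 weeks, Adamts20 differed by -0.30 ± 0.15 (adjusted p 0.624) and Adamts17 by -0.19 ± 0.12 (adjusted p 0.725).

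Members without overlap between arrays were also counted. Against naive mice the DMM arrays did not overlap for 5 members at 4 weeks, where 16.0% of all tested genes did not, for 4 at 8 weeks (10.2%) and for 4 at 16 weeks (12.0%). Against sham they did not overlap for 4 members at 4 weeks (11.6%) and for 2 at 16 weeks (11.0%). A count of 5 is 17.9% of the 28 members and a count of 4 is 14.3%, near the shares of all genes. At 4 weeks the members above naive after DMM were Adamts1, Adamts9 and Adamts15, and those lower were Mmp19 and Adamts14. At 4 weeks those higher than sham were Adamts1, Mmp14, Adamts10 and Mmp19. Adamts10, Adamts18 and Mmp17 lie outside the naming rule and are named here after their values were seen.

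**Figure D3:**
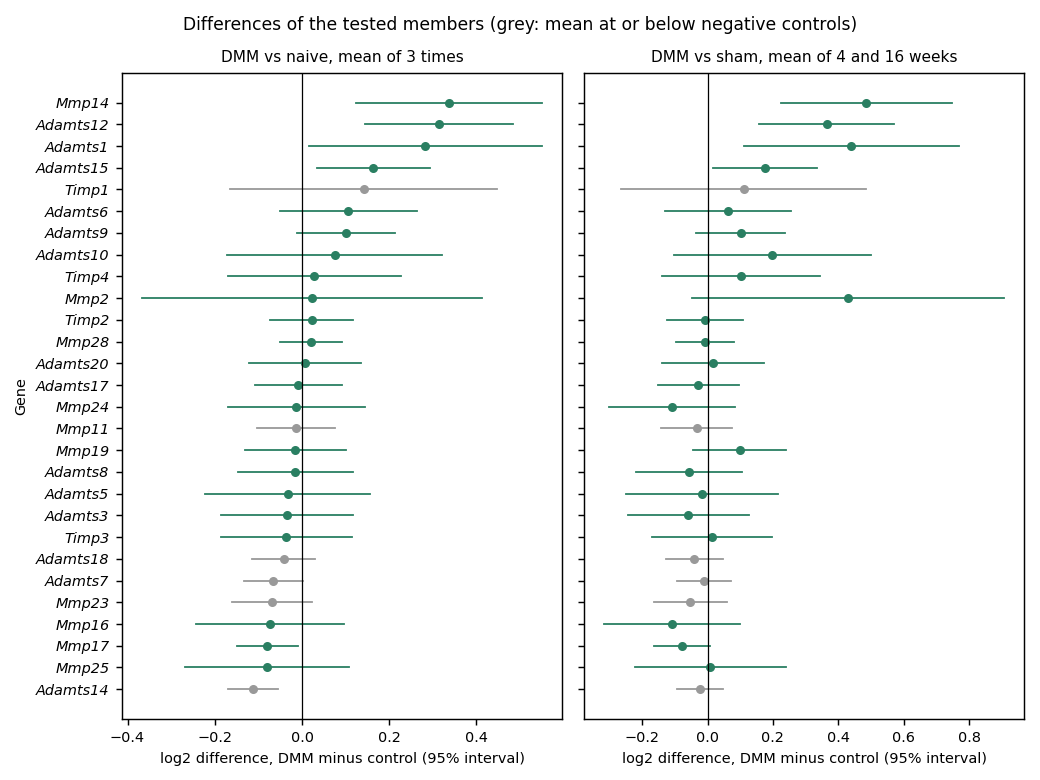
Log2 difference with 95% interval (x axis) of each of the 28 tested members (y axis, gene) for DMM minus naive over the mean of 3 times (left) and DMM minus sham over the mean of 4 and 16 weeks (right), with members at negative control level in grey. Mmp14, Adamts12, Adamts1 and Adamts15 have intervals above 0 in both panels, Adamts14 and Mmp17 have intervals below 0 in the left panel, and no adjusted p passes the threshold.

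The inhibitors were described on their own. Timp2 had group means of 14.58 to 14.67, and its difference of DMM from naive over the 3 times was 0.02 ± 0.05 with a 95% interval of -0.07 to 0.12. Timp3 had group means of 8.98 to 9.28. Its DMM values were 9.08, 9.03 and 8.82 at 4 weeks and 9.14, 9.55 and 9.15 at 16 weeks, without overlap, and the difference between these times was 0.31 ± 0.12 (adjusted p 0.184). DMM and naive overlapped for Timp3 at 16 weeks (difference 0.15 ± 0.12, adjusted p 0.758). Timp4 lay near the control median in all groups, and its highest values were 5.51 and 5.92 on the DMM arrays 1 and 2 of 16 weeks and 5.60 on sham replicate 2 of that time, while DMM replicate 3 was at 5.0. Its difference of DMM from naive at 16 weeks was 0.26 ± 0.16 (adjusted p 0.672). Timp1 was highest on DMM replicate 2 of 8 weeks, at 5.68, with the other 2 arrays of that group at 4.44 and 4.65. By group mean it was above the control median only in naive mice of 4 weeks, at 5.18. Naive mice of 16 weeks averaged 4.55, a difference of -0.63 ± 0.25 (limma, adjusted p 0.0865).

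In the RefSeq annotation Timp1 lies within Syn1, Timp3 within Syn3 and Timp4 within Syn2, genes of the synapsin family of neuronal vesicle proteins, and Timp2 within no such gene. Whether a probe set of these 3 inhibitors reads RNA of its host gene was not tested.

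**Figure D4:**
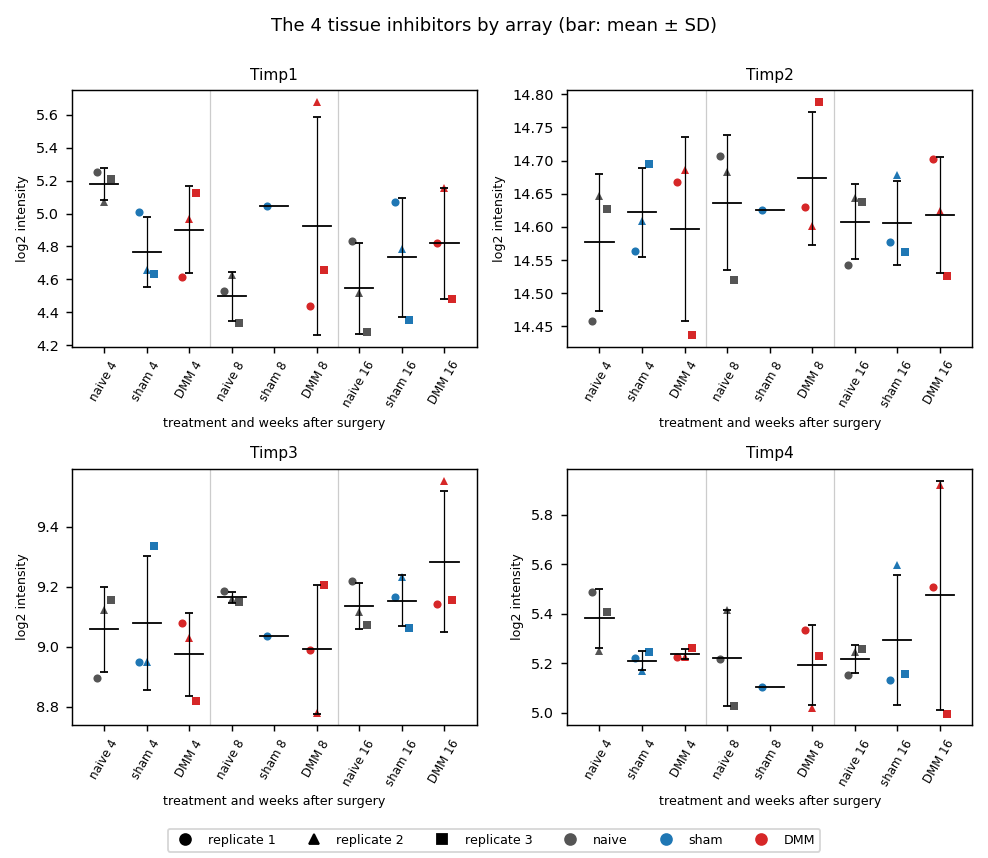
Log2 intensity (y axis, a different range in each panel) of Timp1, Timp2, Timp3 and Timp4 by treatment and weeks after surgery (x axis), 1 point per array with symbols for replicates and bars for mean ± SD. Timp2 stays between 14.44 and 14.79 on all arrays, and the Timp1 value of 5.68 on DMM replicate 2 of 8 weeks stands apart from the other 2 arrays of its group.

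Naive mice of the first and last collection were compared next. Age and collection changed together between these groups, so they cannot be told apart. The 95th percentiles of the negative controls were 8.21 to 8.41 on the naive arrays of 4 weeks and 8.56 to 8.77 on those of 16 weeks. Between 4 and 16 weeks of the schedule, which is 14 and 26 weeks of age, 5 of 28 tested members (17.9%) were called (limma, adjusted p under 0.05), near the 18.8% of all tested genes. Of the 5, Adamts9 and Mmp25 rose, where 6.08% of all genes rose, and Mmp16, Mmp19 and Adamts12 fell, where 12.7% of all genes fell. At an unadjusted p below 0.05 there were 8 members (all genes 33.2%), and 10 members had no overlap between the 2 ages (all genes 38.9%). The members' shares lay close to those of all genes, and their median difference was -0.07, beside -0.07 over all tested genes. Of all genes called, 1232 were higher and 2579 lower, and after quantile normalization 905 were higher and 4431 lower.

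Mmp16, a membrane-type metalloproteinase of the nervous system, had the smallest p. It was at 7.84, 7.51 and 7.73 in naive mice at 4 weeks, at 7.17, 7.13 and 7.22 at 8 weeks and at 7.01, 7.01 and 6.94 at 16 weeks. Each of the 3 times was separate from the others, and the fall from 4 to 16 weeks was 0.71 ± 0.14 (fold 0.613, adjusted p 0.00258). Adamts9, a protease that clears versican, rose from 6.97, 6.97 and 6.85 to 7.51, 7.20 and 7.14, a difference of 0.35 ± 0.09 (adjusted p 0.0131). Mmp25 rose from 11.12, 10.95 and 10.82 to 11.44, 11.48 and 11.46, a difference of 0.49 ± 0.16 (adjusted p 0.0335). Mmp19, a metalloproteinase that cuts basement membrane proteins and lies near the control median, fell from 5.55, 5.69 and 5.51 to 5.25, 5.29 and 5.23, by 0.33 ± 0.10 on average (adjusted p 0.0240). Adamts12 fell from 6.11, 6.19 and 6.41 to 5.90, 5.73 and 5.80, by 0.42 ± 0.14 (adjusted p 0.0404). None of the 5 overlapped between the 2 ages.

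The calls other than that of Mmp16 were lost under some fits with fewer arrays, while the differences kept their direction. Leaving out 1 naive array of these times at a time left from 1 to 5 members and from 2164 to 3083 of all genes called, and the 1 left without naive replicate 1 of 16 weeks was Mmp16, at -0.72 (adjusted p 0.0111). Over all alternatives the adjusted p of Mmp16 ran from 0.000478 to 0.0145. The call of Mmp25 was lost without any of the 3 naive arrays of 16 weeks and without naive replicate 2 or 3 of 4 weeks (adjusted p 0.0718 to 0.127), where its difference was 0.42 to 0.51. That of Adamts12 was lost without those same 5 arrays (0.0671 to 0.164), where its difference was -0.47 to -0.34. Mmp19 was lost without naive replicate 1 or 3 of 16 weeks or replicate 2 of 4 weeks (0.0650 to 0.0919), where its difference was -0.32 to -0.27. Adamts9 was lost without naive replicate 1 of 16 weeks (difference 0.24, adjusted p 0.0912) or replicate 3 of 4 weeks (difference 0.31, adjusted p 0.0607).

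Nerve injury genes also varied between these arrays. A set of 10 genes that axotomized sensory neurons are known to induce, among them Atf3, Sprr1a, Gal and Npy, averaged 9.15, 8.94 and 9.05 on the naive arrays of 4 weeks and 6.99, 7.12 and 7.14 on those of 16 weeks. Of 9 tested, 7 fell (limma, adjusted p under 0.05), where 12.7% of all tested genes fell. Among operated mice the injury genes averaged 9.03 on DMM replicate 2 of 4 weeks, 9.15 on DMM replicate 2 of 8 weeks and 8.93 on the sham array of 8 weeks. On these arrays Mmp16 was at 7.63, 7.72 and 7.68, and the other 2 DMM arrays were at 7.19 and 7.01 at 4 weeks and 7.07 and 7.27 at 8 weeks, with injury gene levels of 7.79 and 7.44 and of 7.12 and 7.71. The naive arrays of 8 weeks had injury gene levels of 7.08, 7.07 and 8.12 and Mmp16 values of 7.17, 7.13 and 7.22. The sham arrays of 4 weeks had injury gene levels of 8.69, 7.73 and 8.06 and Mmp16 values of 7.61, 7.54 and 7.35. The orders of the 2 measures thus differed on some arrays, such as sham replicate 2 of 4 weeks and naive replicate 3 of 8 weeks. All 9 arrays of 16 weeks had injury gene levels of 6.90 to 7.33, and their Mmp16 values ran from 6.94 to 7.05. The 12 macrophage markers averaged 7.40 to 7.73 on the naive arrays of 4 weeks and 6.82 to 7.0 on those of 16 weeks, and 8 of the 12 fell. Of the 14 sheath markers 13 were lower at 16 weeks (median -0.41), of which 2 fell, and of the 6 tested myelinating Schwann cell markers 1 fell (median -0.24). Between these ages 36.2% of all tested genes had a higher mean at 16 weeks. The part of these lists in the differences of the members was not tested.

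**Figure D5:**
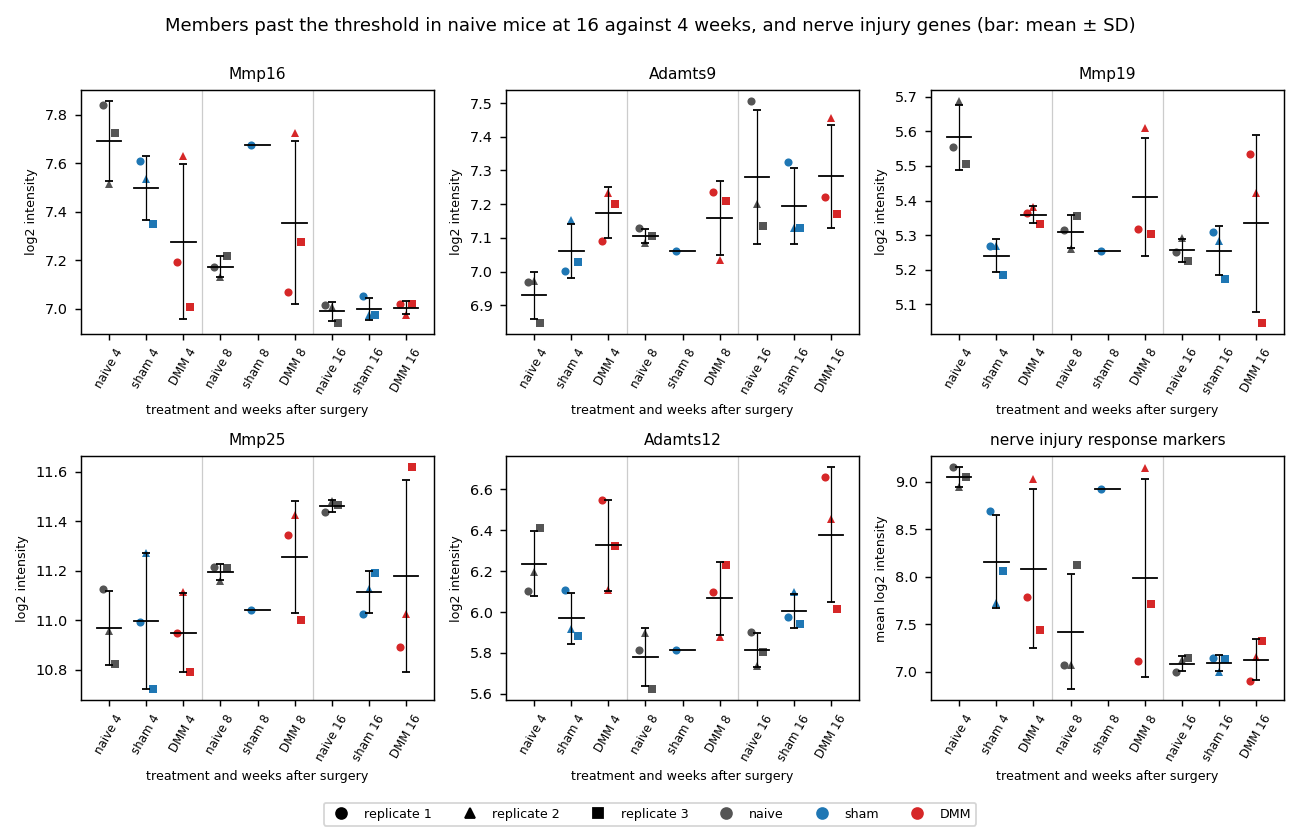
Log2 intensity (y axis) of Mmp16, Adamts9, Mmp19, Mmp25 and Adamts12 and the mean log2 intensity of the nerve injury genes, by treatment and weeks after surgery (x axis), 1 point per array with symbols for replicates and bars for mean ± SD. The naive arrays of 4 weeks are high for Mmp16 and the injury genes, as are DMM replicate 2 of 4 weeks, DMM replicate 2 of 8 weeks and the sham array of 8 weeks.

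The same span in DMM mice gave no call among the members. Between 4 and 16 weeks after DMM, 0 of 28 members were called where 2.87% of all tested genes were, and 2 had an unadjusted p below 0.05 (all genes 18.4%), Timp3 and Adamts18. Without DMM replicate 3 of 16 weeks, 1 member was called, Adamts10, at 0.68 (adjusted p 0.0493), and 522 of all genes were. The difference itself between the changes in DMM and in naive mice was tested for each member, and 0 of 28 passed (0.00494% of all genes), with 4 at an unadjusted p below 0.05 (10.6%). These were Adamts12 (0.48 ± 0.20, adjusted p 0.433), Mmp14 (0.58 ± 0.25, 0.442), Mmp19 (0.30 ± 0.14, 0.451) and Mmp16 (0.43 ± 0.20, 0.455). In each the naive difference was below 0, and the DMM difference was -0.27 for Mmp16, -0.02 for Mmp19, 0.05 for Adamts12 and 0.12 for Mmp14. This test shares its arrays with both comparisons.

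Sham surgery alone gave no call. At 4 weeks 0 of 28 members were called in sham against naive mice (all genes 0.331%), with 3 at an unadjusted p below 0.05 (15.9%). They were Mmp19 (-0.34 ± 0.10, adjusted p 0.10), Adamts14 (-0.12 ± 0.05, adjusted p 0.210) and Mmp2. Sham arrays were at 5.27, 5.27 and 5.18 for Mmp19, below the naive arrays at 5.55, 5.69 and 5.51. All 14 sheath markers (median -0.45) and all 12 macrophage markers (median -0.53) were also lower in sham than in naive arrays of 4 weeks, where 36.1% of all tested genes were higher. Of these markers 0 and 3 were called, and their part in the differences of the members was not tested. At 16 weeks 0 were called (0.00494%), and 1 had an unadjusted p below 0.05 (10.8%), namely Mmp25. It was at 11.02, 11.13 and 11.19 in sham mice and 11.44, 11.48 and 11.46 in naive mice, without overlap (difference -0.35 ± 0.16, adjusted p 0.428), and the DMM arrays at 10.89, 11.02 and 11.62 spanned both.

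The other genes of the pathway were taken from 2 lists. The activators, inhibitors and related proteases numbered 43 on the array and 37 tested. In naive mice 5 of 37 fell from 4 to 16 weeks, where 12.7% of all genes fell, and none rose, where 6.08% of all genes rose: Ctss (cathepsin S, a protease of macrophages and microglia) by 1.09 ± 0.16 (adjusted p 0.000363), Adam10 and Adam17, sheddases of the cell surface, by 0.67 and 0.42, Plat (tissue plasminogen activator) by 0.56, and Bsg (basigin, an inducer of metalloproteinases) by 0.32. The list's median difference was -0.09, beside -0.07 over all genes. In the comparisons of DMM with naive or sham and of sham with naive, 0 of 37 passed (limma), with 1 to 7 at an unadjusted p below 0.05. The share of all tested genes at that p ran from 4.68% to 15.9% over these comparisons. At 16 weeks 26 of 37 were higher after DMM than in naive mice (all genes 53.0%), with a median of 0.07 beside 0.01, and 5 had an unadjusted p below 0.05 (all genes 8.81%).

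The substrates numbered 38 on the array and 35 tested. In naive mice 7 of 35 fell from 4 to 16 weeks and none rose, against the same 12.7% and 6.08% of all genes. They were Bdnf (a neurotrophin whose precursor metalloproteinases cut) by 0.74 ± 0.19 (adjusted p 0.0131), Tnc by 0.49, Nid1 by 0.43, the basement membrane collagens Col4a2 and Col4a1 by 0.40 and 0.36, Col5a1 by 0.24 and Col2a1 by 0.19, and of these Tnc and Col2a1 lay at or below the control median. In DMM mice 2 of 35 fell over the same span, where 1.80% of all tested genes fell. They were Ncan (neurocan), by 0.32 ± 0.08 (adjusted p 0.0422), and Tnc, by 0.39 ± 0.10 (adjusted p 0.0471). In the comparisons of DMM with naive or sham and of sham with naive, 0 of 35 passed (limma), with 0 to 5 at an unadjusted p below 0.05 (all genes 4.68% to 15.9%). At 16 weeks 29 of 35 substrates were higher after DMM than in naive mice (all genes 53.0%), with a median of 0.20 beside 0.01 over all genes. Of these substrates 5 had an unadjusted p below 0.05 (all genes 8.81%). The naive arrays enter both comparisons, so these values are not independent of each other.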

How the data were processed

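Gene expression was measured with 25 microarrays of 72685 probe sets, 6729 of them controls. The authors deposited 1 log2 intensity per probe set and array. The log2 scale was read from the values, which run from 2.23 to 19.70 with array medians of 4.88 to 4.97. Normalization, summary method and software: not given in the sources used here. Biotin labelling is stated per the labels' protocols. Array precision is limited by the number of arrays.

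Probe sets were named from the platform annotation, with 827 symbols updated by Entrez identifier. Of the transcript probe sets 30604 had 1 symbol, 2146 had several and 33206 had none, and only the first kind was used. The probe set of highest mean stood for a gene. Genes whose mean exceeded the 40th percentile of transcript probe set means (4.52) were tested. With limma 3.58.1 in R 4.3.3, 1 mean per group was fitted over all 25 arrays (16 residual degrees of freedom) and 13 contrasts were tested, two-sided, with eBayes and Benjamini-Hochberg adjustment over 20260 genes at 0.05. The lone sham array of 8 weeks took its spread from the other groups. The procedure was run on simulated data with noise independent between genes and of the same spread on all arrays. That run does not show how the tests behave where genes move together or 1 array stands apart.

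Members and lists were chosen with earlier results of these data known. Named are 13 fixed members, members called in any comparison, and for each comparison of DMM the 3 of smallest p above the control median. Alternatives were other filters, normalizations, probe set rules, priors, array weights, fewer arrays in the fit, the replicate number as a block, and leaving out each array.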

Additional observations from a re-analysis of the deposited data

How the results depend on the processing

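With the 95th percentile of the negative controls as the limit, 38 of 44 members lay at or below it, against 22 with the median. For naive mice at 16 against 4 weeks, 8 members were called with array weights (5301 of all genes) and 8 with quantile normalization (5336), against 5 (3811), and leaving out 1 array gave 1 to 5 (2164 to 3083 in fits without a naive array of those times). Quantile normalization moved the median difference of all genes there from -0.07 to -0.13 and the calls from 1232 higher and 2579 lower to 905 higher and 4431 lower. Called besides the 5 were Mmp14, Adamts14 and Timp1 with array weights, and Mmp14, Adamts14 and Mmp28 with quantile normalization. Without a filter the call of Adamts12 was lost (adjusted p 0.0555), and with only the arrays compared in the fit that of Adamts9 (0.0612). Leaving out 1 array gave 0 to 3 members for DMM against naive at 16 weeks, 0 to 2 over the 3 times, 0 to 1 for DMM against sham at 16 weeks, 0 to 1 over 4 and 16 weeks and 0 to 1 for DMM at 16 against 4 weeks, each highest without DMM replicate 3 of 16 weeks, where 325, 26, 11, 11 and 522 of all genes were called, against 3, 9, 1, 2 and 582. With array weights 1 member, Mmp19, was called in sham against naive mice at 4 weeks (adjusted p 0.0408), with 628 of all genes. Over all alternatives the genes called ranged from 4 to 1387 for DMM at 16 against 4 weeks. Alternatives were tabulated for 43 differences of named members, chosen for a small unadjusted p in the main fit (limma). Of their 795 alternative values, 764 kept their direction and side of the threshold, 17 lost the call, 14 gained it and 0 reversed. Only 5 of the 43 were called in the main fit, so all 17 losses were among these 5. The others counted as kept when they stayed uncalled, and the choice by small p made a reversal unlikely.

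No label ties arrays of the same replicate number to a shared animal or day. The deviations of same-numbered arrays correlated from -0.36 to 0.32 over 21 pairs, above 0.1 in 8. With the replicate number as a block, 5 members were called for naive mice at 16 against 4 weeks and 0 in the other comparisons, as without it, while the calls over all genes in sham against naive mice at 4 weeks went from 67 to 5.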
